A study of Mus musculus with 2 samples.

Results

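The genes of mitochondrial ribosomal proteins were followed in sorted mouse bone marrow cells of the Lin-c-kit+Sca1+ phenotype, the marrow fraction that lacks antigens of mature lineages, carries the receptor Kit and the antigen Sca-1, and holds the blood stem cells with their earliest progeny. Members were chosen by name, as all probe sets of the array whose only annotated gene symbol begins with Mrpl or Mrps and a number. The genes were taken up after signals of these 2 samples were known, so their levels and differences are given as descriptions and not as support for a pattern. There were 76 such probe sets for 61 genes, out of 12422 probe sets besides the controls and 8251 named genes. The RNA of 2 samples, here sample 1 and sample 2 as in their titles, was hybridised to 1 array each after 2 rounds of amplification. Both samples belong to the same group, and the labels give no strain, age, genotype, treatment or second condition. Nothing in the labels says if separate animals or sorts were used, so the spread between them may be technical. With 1 group of 2 samples no gene could be tested, and no p-value is given. The values describe these 2 arrays.

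Mitochondria keep their own ribosome, which translates the few messages of mitochondrial DNA into core subunits of the respiratory chain and the ATP synthase. All of its proteins are encoded in the nucleus and imported, and they assemble on ribosomal RNA made in the organelle into a large subunit, whose proteins are named Mrpl, and a small subunit, named Mrps. Many are counterparts of bacterial ribosomal proteins and carry the bacterial number, while others occur only in mitochondria. Haematopoietic stem cells are known to be sensitive to changes in mitochondrial activity and protein synthesis.

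Most of these genes were measured in both samples. A signal is a quantile-normalized probe set intensity, and it was called above the control level when it exceeded the 90th percentile of 15 probe sets for bacterial genes, which was 12.1 in sample 1 and 8.91 in sample 2. Of the 76 probe sets 54 (71.1%) passed in both samples, beside 49.3% of all 12422 probe sets. By gene, 50 of 61 (82.0%) had at least 1 such probe set, beside 57.0% of all named genes. The large subunit had 32 of 40 genes above the level and the small subunit 18 of 21. Within the large subunit 20 of 22 genes with a number up to 36, the range shared with bacteria, were above it, and 12 of 18 genes with a higher number. Within the small subunit the counts were 10 of 12 genes numbered up to 21 and 8 of 9 genes with a higher number. Numbers are an imperfect guide to ancestry, since Mrps24 and Mrpl55 have bacterial counterparts under other numbers and Mrps18a, despite its name, sits in the large subunit. Another 17 annotated genes of this naming had no probe set of their own and were not analysed here.

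Signals of these genes were modest. For log2 values, signals under 20 were set to a floor of 20, which held 57.6% of the values in each sample. Of the 76 probe sets 42 had both signals at or above 20, and 18 were under it in both samples. The median of the mean log2 signal over the 54 probe sets that passed was 5.38, beside 5.26 over all 6118 probe sets above it. Both signals were 100 or more for 7 of 76 probe sets (9.21%), beside 5.94% of all probe sets. All 7 belonged to large subunit genes, with 7 of 51 there and 0 of 25 for the small subunit. A probe set's signal also depends on its probes, so signals of different genes do not order their RNA amounts.

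**Figure D1:**
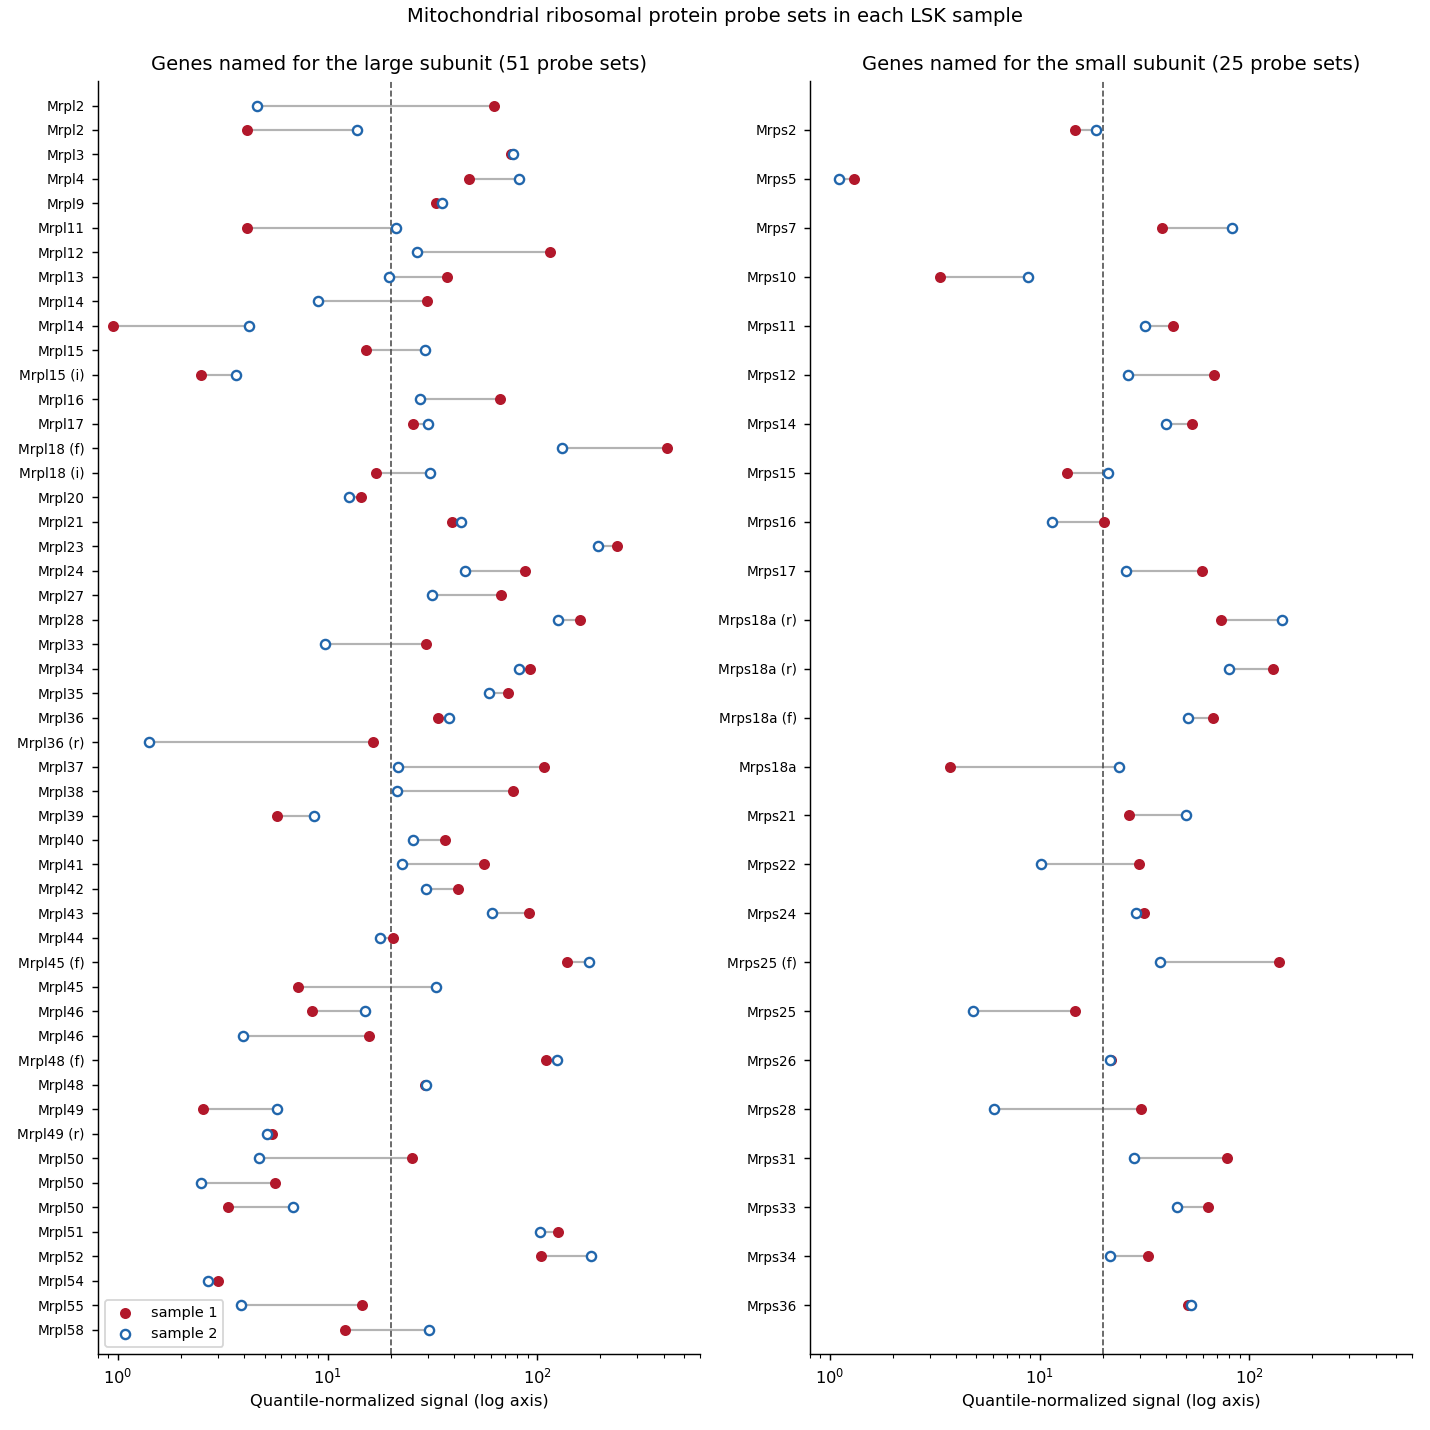
Quantile-normalized signal (log axis) of all 76 member probe sets, with filled points for sample 1, open points for sample 2 and a dashed line at the floor of 20. Large subunit genes (51 probe sets) are on the left and small subunit genes (25) on the right, in order of protein number, and letters in brackets mark probe sets with an f, r or i suffix. The widest gaps above the floor have the filled point on the right, as for Mrpl12 and Mrpl37.

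The 7 strong probe sets were less than 2-fold apart between the samples with 1 exception. Mrpl23, a counterpart of the bacterial protein at the exit of the peptide tunnel, gave 241 in sample 1 and 193.8 in sample 2, a mean log2 value of 7.76 ± 0.22 (SD, n = 2). Mrpl28 had 159.5 and 124.9, and Mrpl51, found only in mitochondria, had 126 and 103. These 3 were somewhat higher in sample 1. Mrpl45, which anchors the tunnel exit to the inner membrane, had 139 and 176. Mrpl48 had 110 and 124, and Mrpl52, a mitochondrial large subunit protein, had 104 and 179.6. These 3 were higher in sample 2, none of them by 2-fold, with Mrpl52 the furthest apart at 1.73-fold. The exception was Mrpl18, counterpart of a protein that binds 5S ribosomal RNA in bacteria, with 417 and 132. The probe sets of Mrpl18, Mrpl45 and Mrpl48 carry the suffix f, which the array's maker gave to probes shared within a sequence family, so related transcripts may add to these signals. Next in mean log2 signal was a Mrps18a probe set with 73.3 and 144, one of several for that gene described further on.

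Where the 2 samples differed by 2-fold or more, the mitochondrial ribosomal genes were nearly all higher in sample 1. Of the 54 probe sets that passed, 11 (20.4%) were 2-fold or more higher in sample 1, beside 10.5% of all 6118, and 1 (1.85%) was 2-fold or more higher in sample 2, beside 9.40%. With the deposited scaling the counts were 12 and 1, beside 12.1% and 8.09% of all 6118, and with median-centring 11 and 2, beside 9.73% and 9.91%. Counting any difference, sample 1 was higher for 34 and sample 2 for 18, with 2 tied at the floor, while among all 6118 these counts were 2830, 2594 and 694. On the log2 scale sample 1 minus sample 2 had a median of 0.30, or 1.24-fold, beside 0 over all 6118. It was 0 over all 76 probe sets, of which 18 lie at the floor in both samples. The SD between the 2 samples was 0.61 on the log2 scale (root mean square over 54 probe sets), beside 0.58 over all 6118.

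The comparison was repeated among probe sets of like signal, because weak signals at the floor cannot differ. Between the quartiles of the members' mean log2 signal, 4.77 and 6.02, lay 26 members and 2462 probe sets of all kinds. Of the 26, 9 (34.6%) were 2-fold or more higher in sample 1, beside 15.5% of the 2462, and 1 (3.85%) was 2-fold or more higher in sample 2, beside 12.9%. The 7 strong probe sets described above lie outside this range, which was chosen after seeing the data.

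Genes named for either subunit had probe sets past 2-fold. Of 34 named for the large subunit and above the level, 7 were 2-fold or more higher in sample 1 and 0 in sample 2. Their median difference was 0.29. Of 20 named for the small subunit, 4 were past 2-fold in sample 1 and 1 in sample 2, with a median difference of 0.41. Over all 6118 the shares past 2-fold were 10.5% and 9.40%. The split is by name, so the 20 include 3 probe sets of Mrps18a, which sits in the large subunit. Probe sets with a bacterial number had a median difference of 0.29 (33 probe sets, 6 and 1 past 2-fold), and those with a higher number one of 0.50 (21 probe sets, 5 and 0). Whether these medians differ between subunits or by ancestry was not tested.

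Technical and cell type measures also differed between the 2 samples. The ratio of the 3′ to the 5′ control probe set of Actb was 10.4 in sample 1 and 22.2 in sample 2, and that of Gapdh was 11.2 and 19.0, so signal was more confined to the 3′ ends in sample 2. Of the stem and early progenitor markers 10 of 13 were above the control level (all but Hoxa9, Tal1 and Tek), beside 57.0% of all named genes. Kit, an antigen of the sort, was near the floor, with 25.8 in sample 1 and 19.4 in sample 2. Sums of a marker list run over all its measured genes, also those not above the level. For the stem and early progenitor markers the sums were 2330 in sample 1 and 3966 in sample 2. Most of that gap was Lyl1, a transcription factor gene of early progenitors, with 695 and 2224, and without it the sums were 1635 and 1742. Of 11 lineage antigen genes 3 were above it, and their sums were 97.6 and 102.5. Monocyte and macrophage markers (6 of 8 above the level) summed to 522 and 268, mature neutrophil markers (7 of 9) to 578 and 1224, and erythroid markers (6 of 8) to 1207 and 1214. The near equal erythroid sums hid wide differences both ways: the globin gene Hba-a1 had 30.1 and 670, the carbonic anhydrase gene Car1 had 488 and 75.9, and the transcription factor gene Klf1 had 215 and 80.5. Without Hba-a1 the erythroid sums were 1177 and 544. T and NK cell markers (5 of 9) summed to 165 and 201, megakaryocyte markers (3 of 6) to 429 and 370, and stromal and endothelial markers (7 of 9) to 379 and 510. Leaving out the gene furthest apart turned the order of the erythroid list, as given above, and of 3 others. Lineage antigens without Ms4a1 came to 69.3 and 59.0, and megakaryocyte markers without F2r to 97.1 and 160.1. Stromal and endothelial markers without Col4a1 came to 339 and 310.1. The part of these differences in the results for mitochondrial ribosomal genes was not tested, and in sorted cells fewer cells of a type and less RNA per cell cannot be told apart.

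**Figure D2:**
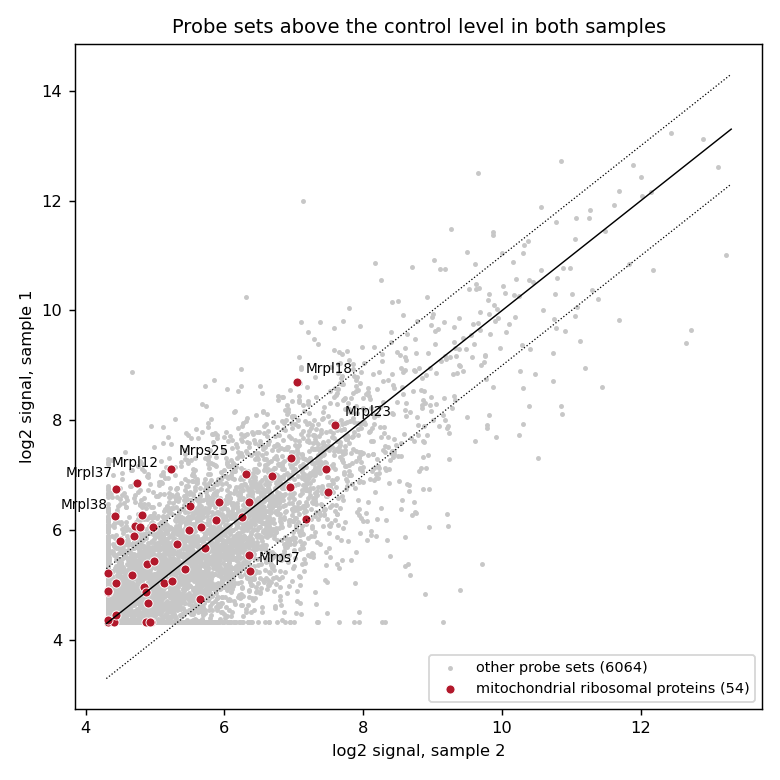
log2 signal with the floor in sample 1 (vertical) against sample 2 (horizontal) for the 6118 probe sets that passed the control level in each sample, with the 54 members in red. The solid line marks equal signals and the dotted lines 2-fold differences, beyond which 11 members lie above and 1, Mrps7, below.

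The 7 large subunit probe sets past 2-fold belonged to proteins of several sites of the ribosome. Mrpl37, a large subunit protein without a bacterial counterpart, gave 107 in sample 1 and only 21.7 in sample 2, 4.94-fold apart, or a mean log2 value of 5.59 ± 1.63 (SD, n = 2). Mrpl12, counterpart of the bacterial stalk protein that recruits translation factors, had 115.5 and 26.7, 4.33-fold apart, or 5.8 ± 1.49 (SD, n = 2). For all of the 7 but Mrpl18 the signal of sample 2 was close to the floor of 20, from 21.5 to 31.3. Mrpl38, of the central protuberance where the large subunit faces the small one, had 76.4 and 21.5, 3.56-fold apart. The Mrpl18 probe set described above was 3.16-fold apart, the only one of the 7 with a signal over 100 in sample 2. Mrpl41, which in human cells was reported to bind Bcl2, had 56.0 and 22.6, and Mrpl16, counterpart of a bacterial protein beside the transfer RNA sites, had 66.5 and 27.5. Mrpl27, whose bacterial counterpart reaches the peptidyl transferase centre, had 66.8 and 31.3 and was the least apart at 2.13-fold.

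The small subunit had 5 probe sets past 2-fold, 4 of them higher in sample 1. Mrps25, a small subunit protein specific to mitochondria, gave 138 in sample 1 and 37.6 in sample 2, a 3.67-fold difference, by a probe set of the f kind. Mrps31, also known as imogen 38, had 78.0 and 28.3, 2.76-fold apart. Mrps12, counterpart of the bacterial protein at the decoding centre, had 67.7 and 26.3, 2.57-fold apart, and Mrps17, counterpart of a protein that binds ribosomal RNA, had 59.2 and 25.9. Mrps7, the counterpart of a protein of the small subunit head, went the other way with 38.5 in sample 1 and 82.4 in sample 2, 2.14-fold higher in sample 2. It was the only member above the control level past 2-fold in that direction.

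For the genes with just 1 probe set on the array, outside those named so far, differences were smaller. Their 28 probe sets above the level had signals of 12.1 to 91.9 in sample 1 and 9.7 to 81.8 in sample 2, and log2 differences between -0.90 and 0.95. Sample 1 was higher for 17 and sample 2 for 9, with 2 tied at the floor, and 13 of the 28 lay within 1.2-fold. Mrpl24 was next to the 2-fold line on one side, with 87.4 and 45.3, and Mrps21 on the other, with 26.8 and 50.1. Mrpl3, counterpart of a protein near the peptidyl transferase centre, had almost equal signals of 75.2 and 76.5. Mrps36, with 51.0 and 52.7, is now known mainly as a part of the oxoglutarate dehydrogenase complex. Mrpl58, a peptidyl-tRNA hydrolase built into the large subunit, had 12.1 and 30.4, its signal in sample 1 only just above the control level.

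Where a gene had several probe sets they often did not tell the same story. Of the 12 genes with more than 1 probe set, only Mrpl18, Mrpl48 and Mrps18a had more than 1 that passed in both samples, and in 2 of these 3 the probe sets went in opposite directions. Over all genes on the array 253 of 648 (39.0%) did so. The second Mrpl18 probe set, of the i kind with fewer probes than usual, had 17.1 in sample 1 and 30.7 in sample 2, against the direction of the first. The 4 probe sets of Mrps18a had 129 and 79.6, 66.9 and 50.9, 73.3 and 144, and 3.75 and 24, so that 2 were higher in each sample. For Mrpl48 the second probe set had 29.3 and 29.4. Both probe sets of Mrpl45 were higher in sample 2, the second with 7.2 and 33, below the control level in sample 1. The second probe set of Mrps25 had 14.8 and 4.8, higher in sample 1 as the first was but under the floor in both. Mrpl36 had 33.6 and 38 by its plain probe set and 16.5 and 1.4 by one of the r kind. Mrpl14 had 29.7 and 8.95 by one probe set and 0.95 and 4.2 by the other, and Mrpl15 had 15.3 and 29.2 by one and 2.5 and 3.65 by the other. Of the 76 member probe sets 11 carried an f, r or i suffix. Of the 46 plain ones above the level 9 (19.6%) were 2-fold or more higher in sample 1 and 1 (2.17%) in sample 2. Over all 4780 plain probe sets above the level the shares were 10.8% and 8.93%. This count was chosen after seeing the data.

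The other 22 member probe sets missed the control level in at least 1 sample. Of these 7 were above it in sample 1 only, 5 in sample 2 only and 10 in neither. As shares of the 76, those in sample 1 only were 9.21%, beside 7.04% of all 12422 probe sets. Those in sample 2 only were 6.58%, beside 14.1%. The level was lower in sample 2, at 8.91 beside 12.1, so weak signals passed more easily there. The 22 probe sets left 11 genes without a probe set above the level: Mrpl2, Mrpl11, Mrpl39, Mrpl46, Mrpl49, Mrpl50, Mrpl54, Mrpl55, Mrps5, Mrps10 and Mrps28. Mrpl2, counterpart of a protein at the peptidyl transferase centre, had 62.5 and 4.6 by one probe set, at least 3.13-fold higher in sample 1 with sample 2 at the floor, and 4.13 and 13.8 by the other. Mrps28 had 30.4 and 6.05, and Mrpl50 had 25.3 and 4.7 by 1 of its 3 probe sets. Both were thus measured in sample 1 alone. Mrpl11, of the base of the stalk, had 4.13 and 21.3, measured in sample 2 alone. Mrpl46 had 15.8 and 3.95 by one probe set and 8.45 and 15.0 by the other, and Mrpl55 had 14.7 and 3.85. Mrps5, a counterpart of a bacterial decoding site protein, had 1.3 and 1.1, Mrpl54 had 3.0 and 2.7, Mrps10 3.35 and 8.8, and Mrpl39 5.75 and 8.6. The probe sets of Mrpl49 had 5.4 and 5.15, and 2.55 and 5.75. The other 2 probe sets of Mrpl50 had 5.6 and 2.5, and 3.35 and 6.85. Mrps5, Mrpl39, Mrpl49, Mrpl54 and Mrps10 were above the level in neither sample, which does not show that their RNA was absent.

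Genes of the respiratory chain and ATP synthase, most of whose complexes contain products of this ribosome, leaned the same way. The cytosolic ribosomal protein genes matched by symbol did not. Of 65 probe sets of the respiratory chain and ATP synthase above the level (94 on the array), 14 (21.5%) were 2-fold or more higher in sample 1. In sample 2 it was 3 (4.62%), and the median difference was 0.38. Over all 6118 probe sets above the level the shares were 10.5% and 9.40%, with a median of 0. Of 31 cytosolic ribosomal probe sets (43 on the array), 2 (6.45%) were 2-fold or more higher in sample 1 and 4 (12.9%) in sample 2. Their median difference was 0, and their shares, from few probe sets, lie near those over all 6118. Shares above the control level were alike, 71.1% for mitochondrial ribosomal, 69.1% for respiratory and 72.1% for cytosolic ribosomal probe sets. Both signals were 100 or more for 9.21%, 21.3% and 48.8% of them. The symbol patterns of both comparison groups were narrowed after their values were seen, to leave out paralogues and assembly factors. The wider patterns gave 14 and 3 of 69 respiratory probe sets, with a median difference of 0.33, and 2 and 4 of 35 cytosolic ones, with a median of 0. Both cytosolic patterns missed Rps3a1, a gene of a cytosolic ribosomal protein. Its probe set was past 2-fold higher in sample 1, with a log2 difference of 1.56, and is not in these counts. Whether the 3 groups differ was not tested, since there is 1 value of each probe set per sample.

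**Figure D3:**
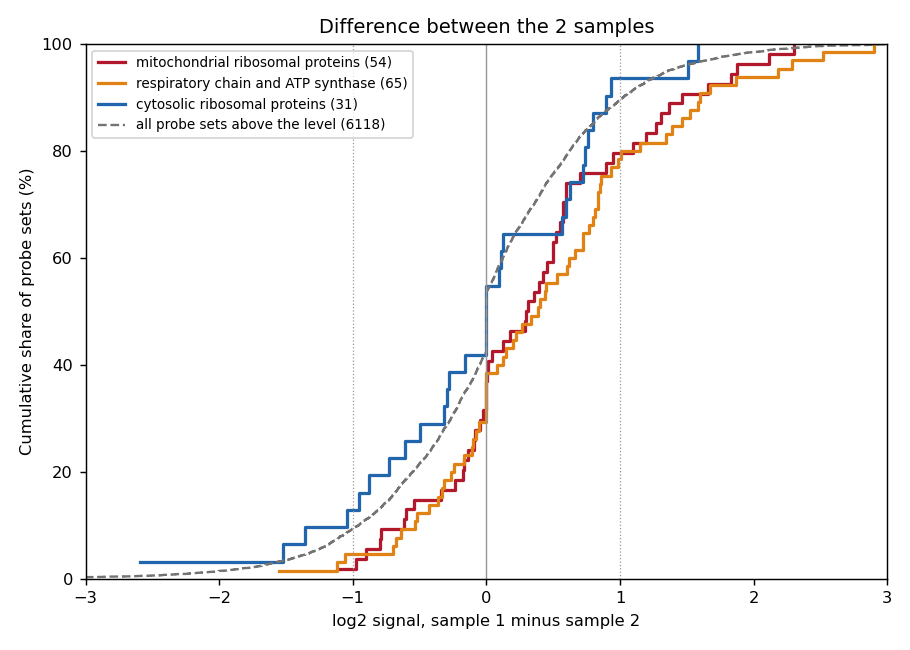
Cumulative share of probe sets (%) by log2 signal of sample 1 minus sample 2, for 54 mitochondrial ribosomal, 65 respiratory chain and ATP synthase and 31 cytosolic ribosomal probe sets, and for all 6118 above the control level (dashed). The curves of mitochondrial ribosomal (median 0.30) and respiratory genes (median 0.38) run to the right of the dashed curve over most of the range, and dotted lines mark 2-fold differences.

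Other genes of mitochondrial translation and biogenesis also passed 2-fold more often in sample 1, while the median difference over all of them was near 0. Of 68 measured genes in 7 lists, with 1 probe set per gene, 53 (77.9%) were above the control level, 10 of them 2-fold or more higher in sample 1 and 3 in sample 2, with 27 and 19 by any amount and a median difference of 0.044. Over all genes the shares past 2-fold were 10.9% and 9.48%. The lists were 2 ribosome members under other names, translation factors, tRNA synthetases, ribosome assembly factors, the machinery of mitochondrial DNA and its transcription, nuclear regulators, and import proteins and chaperones. The members under other names were Ptcd3, at 43.7 and 28.0, and the GTP-binding Dap3, at 13.8 and 20.2.

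Translation factor, tRNA synthetase and ribosome assembly genes above the level were mostly higher in sample 1, with few genes in each list. Of 8 translation factors 5 were above the level, 4 of these higher in sample 1 and 2 of them by 2-fold or more. Tufm, the elongation factor that brings transfer RNA to the ribosome, had 78.2 and 37.9, and Lrpprc, which stabilises mitochondrial messages, had 59.8 and 11.7, at least 2.99-fold apart. Of 9 tRNA synthetase genes 8 were above it, with 6 higher in sample 1 and 2 in sample 2. Past 2-fold were 3 in sample 1 and 1 in sample 2, Sars2 with 15.3 and 65.8. Rars2, the mitochondrial arginine enzyme, had 149.8 and 44.4, and Gars, whose enzyme serves cytosol and mitochondria, had 53.8 and 26.6. Hars, mainly a cytosolic enzyme, had 102 and 20.7. Of 6 assembly genes 3 were above it, among them the ribosomal RNA chaperone gene Eral1 with 71.7 and 74.7 and the helicase gene Dhx30 with 52.9 and 24.5.

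Genes upstream and of protein import were divided. Of 10 genes for mitochondrial DNA and transcription 8 were above the level, 0 of them past 2-fold in sample 1 and 1 in sample 2, the helicase gene Supv3l1 with 21.1 and 55.5. Elac2, which trims the ends of transfer RNA, had 163 and 131, and Tfam, the packaging factor of mitochondrial DNA, was not above the level with 1.3 and 1.5. Of 9 nuclear regulators 8 were above it, and Yy1, a zinc finger factor, was 4.65-fold higher in sample 2 with 91.4 and 425. The ubiquitous factor gene Sp1 had 68.0 and 96.6. Of 24 import and chaperone genes 19 were above it, 9 higher in each sample. The 4 past 2-fold were all higher in sample 1. They were the import motor gene Hspa9 with 372 and 73.0, the channel genes Timm23 with 247.8 and 77.0 and Timm17a with 129 and 46.1, and the co-chaperonin gene Hspe1 with 231 and 73.1. Its partner Hspd1 had 157 and 207.5, and Timm13 had 209 and 158.

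**Figure D4:**
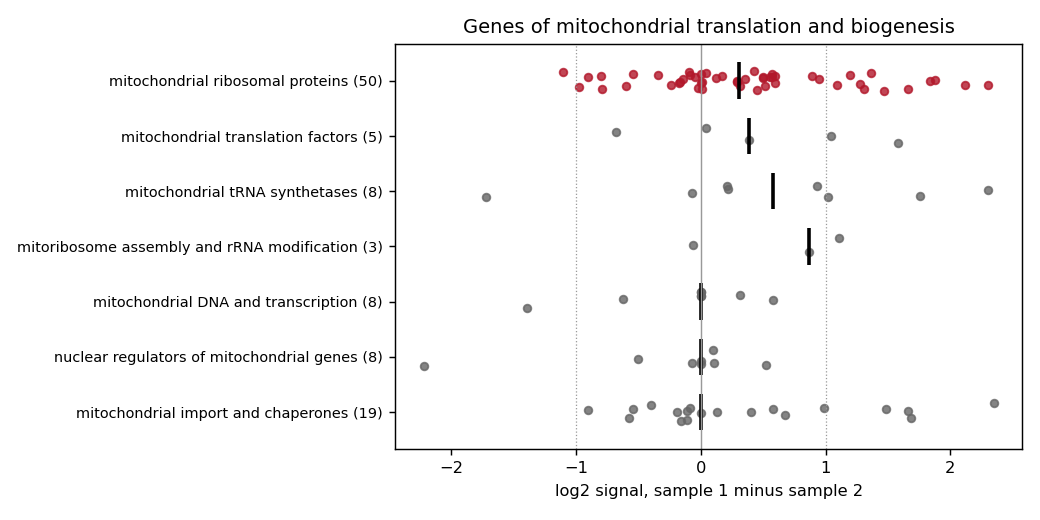
log2 signal of sample 1 minus sample 2 for 50 mitochondrial ribosomal genes (1 probe set per gene, top row) and 6 lists of related genes above the control level, with vertical jitter only for display. Black bars are medians, dotted lines mark 2-fold, and numbers in brackets count genes. The median of the top row is 0.30, and the medians of the bottom 3 lists are 0.

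Promoter sequence, which the choice of members did not use, was searched for short motifs. Promoters of mitochondrial protein genes are known for sites of the ETS family factor GABP, of NRF1 and of YY1. RefSeq promoter windows of build GRCm38.p6, from 250 bases before to 50 after a start site, were matched for 54 of the 61 genes, with 60 windows in all. The ETS letters CCGGAAG stood in 19 of 60 windows (31.7%), beside 14.5% of 8364 windows of protein-coding genes on the array and 8.86% of all 32851 windows. The NRF1 letters GCGCANGCG stood in 9 (15.0%), beside 11.1% and 6.25%. The YY1 letters AAGATGGCG stood in 7 (11.7%), beside 2.40% and 1.40%. Both strands were searched, and overlapping matches were counted. Any of the 3 stood in 31 windows (51.7%), beside 24.8% and 14.8%.

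In all 13 strings were searched, 10 of them first, and which are set out above was decided with these results known. After that scan 3 were replaced by shorter forms for ease of printing, and the shares of some depend on the form. A longer NRF1 form stood in 9 windows (15.0%), beside 8.44% and 4.60%, so the excess over array genes was wider with it. With it any of the 3 motifs stood in 31 windows, beside 22.8% of array windows. A shorter YY1 form, ATGGCGG, which overlaps the one above, stood in 9 (15.0%), beside 6.70% and 4.05%. A longer gapped form of the ZNF143 motif stood in 6 (10%), beside 3.65% and 2.13%, but the short form ACTACAATT in 0, beside 0.693% and 0.393%, so nothing is read from it. The palindrome CTCGCGAGA of some housekeeping promoters stood in 0, beside 1.27% and 0.676%, as did its longer form, beside 0.837% and 0.466%. The other shares were closer to those of array genes, for Sp1 (GGGCGG, 53.3% beside 57.1%, though 35.7% over all windows), NF-Y (CCAAT, 43.3% beside 37.1% and 37.4%), the E box (CACGTG, 10% beside 9.55% and 7.15%) and the TATA letters TATAAA (8.33% beside 9.91% and 13.6%). The median GC content was 58.8%, beside 59.7% for array genes, and the median ratio of observed to expected CpG was 0.776, beside 0.704. The ETS, NRF1 and YY1 letters all contain CpG, and the part of CpG content in their shares was not tested. A match to letters is a description and not evidence of a bound factor.

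**Figure D5:**
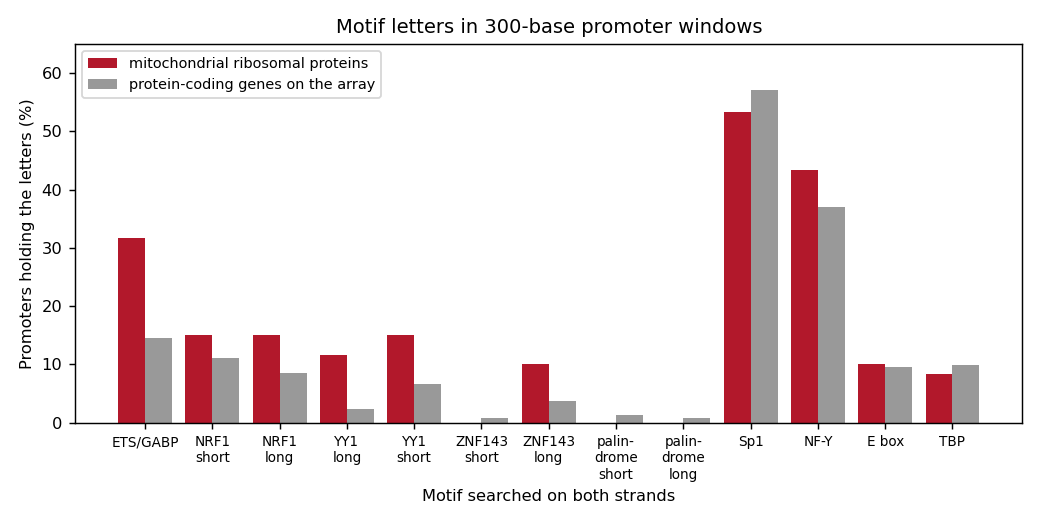
Share of promoter windows (%) that hold the letters of each of 13 motif strings, short and long forms side by side, for 60 windows of mitochondrial ribosomal protein genes (red) and 8364 windows of protein-coding genes on the array (grey). The red bar is higher than the grey one for ETS/GABP (31.7% beside 14.5%), both YY1 forms and both NRF1 forms, and for ZNF143 in the long form only, while the palindrome has no red bar.

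Most matches lay near the start site, among array genes too. Of 23 ETS matches 21 (91.3%) began within 100 bases of it, beside 73.0% of matches in array windows, of 15 NRF1 matches 12 (80%), beside 69.9%, and of 7 YY1 matches 6 (85.7%), beside 77.7%. The members had median positions of -17, -35 and 24, beside -39, -55 and 9.5. Windows are shown for the members furthest apart between the samples, Mrpl37 and Mrpl12, and for the 4 that hold matches of 2 kinds. Capitals mark the ETS, NRF1 and YY1 letters on either strand, and each window runs from 5′ to 3′ along the gene.
Mrpl37, chr4:107066817-107067116, - strand: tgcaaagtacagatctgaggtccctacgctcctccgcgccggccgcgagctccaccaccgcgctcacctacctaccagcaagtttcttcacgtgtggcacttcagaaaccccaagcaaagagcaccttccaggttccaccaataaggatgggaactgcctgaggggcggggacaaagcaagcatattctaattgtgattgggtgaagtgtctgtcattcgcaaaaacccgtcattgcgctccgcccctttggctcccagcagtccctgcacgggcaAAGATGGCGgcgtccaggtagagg
Mrpl12, chr11:120484387-120484686, + strand: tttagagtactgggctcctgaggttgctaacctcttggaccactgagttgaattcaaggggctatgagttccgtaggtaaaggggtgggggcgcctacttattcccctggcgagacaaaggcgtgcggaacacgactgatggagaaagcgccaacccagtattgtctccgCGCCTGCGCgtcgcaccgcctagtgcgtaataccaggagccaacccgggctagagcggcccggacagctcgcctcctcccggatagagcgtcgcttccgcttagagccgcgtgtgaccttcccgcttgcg
Mrps21, chr3:95871465-95871764, - strand: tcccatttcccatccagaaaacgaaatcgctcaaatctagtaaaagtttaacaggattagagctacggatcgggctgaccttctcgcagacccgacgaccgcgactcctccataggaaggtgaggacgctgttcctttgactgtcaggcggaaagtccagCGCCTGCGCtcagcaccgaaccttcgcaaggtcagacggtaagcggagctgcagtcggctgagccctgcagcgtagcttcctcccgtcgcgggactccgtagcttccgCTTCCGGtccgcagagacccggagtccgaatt
Mrpl17, chr7:105811038-105811337, - strand: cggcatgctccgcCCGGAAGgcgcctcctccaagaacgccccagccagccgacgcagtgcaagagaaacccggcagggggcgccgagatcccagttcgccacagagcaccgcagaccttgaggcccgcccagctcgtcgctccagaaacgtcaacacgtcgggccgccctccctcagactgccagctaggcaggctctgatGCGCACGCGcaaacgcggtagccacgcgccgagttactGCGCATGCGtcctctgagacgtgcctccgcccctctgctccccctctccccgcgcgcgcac
Mrps18a, chr17:46110754-46111053, + strand: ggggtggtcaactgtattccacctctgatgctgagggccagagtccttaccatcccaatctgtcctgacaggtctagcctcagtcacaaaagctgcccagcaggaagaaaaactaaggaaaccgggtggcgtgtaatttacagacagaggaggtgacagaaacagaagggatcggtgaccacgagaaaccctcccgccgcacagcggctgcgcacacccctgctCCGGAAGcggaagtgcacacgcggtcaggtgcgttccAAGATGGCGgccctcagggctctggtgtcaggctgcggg
Mrps26, chr2:130563507-130563806, + strand: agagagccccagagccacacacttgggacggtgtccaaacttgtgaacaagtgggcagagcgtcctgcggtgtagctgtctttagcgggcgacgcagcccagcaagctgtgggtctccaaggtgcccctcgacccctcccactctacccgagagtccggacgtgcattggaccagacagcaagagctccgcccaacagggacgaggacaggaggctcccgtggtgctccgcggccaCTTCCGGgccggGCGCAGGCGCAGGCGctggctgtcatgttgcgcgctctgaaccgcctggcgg
Mrpl37 holds YY1 letters and Mrpl12 NRF1 letters. Mrps21, Mrpl17 and Mrps26 hold ETS and NRF1 letters, and Mrps18a ETS and YY1 letters. In Mrps26 the capitals of the second run cover 2 overlapping NRF1 matches.

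Genes with these letters were more often above the control level. Among the members 30 of 31 genes with ETS, NRF1 or YY1 letters were above it (96.8%), and 15 of 23 genes without them (65.2%). Over all protein-coding array genes with a window the shares were 71.3% of 1896 and 52.4% of 4636, a difference in the same direction. Among member genes with a window, 5 of 10 that were 2-fold or more higher in sample 1 held the letters, and 25 of 35 of the others above the level. The share over all array genes was not computed for this split, so nothing is read from it. With the longer NRF1 form the members' counts were also 30 of 31 and 15 of 23. These counts are descriptions and were not tested.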

How the data were processed

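The deposited table holds 1 linear signal intensity per probe set and sample for 12488 probe sets of an Affymetrix mouse array. No source used here states how the authors summarised and scaled the deposited intensities. Their means were equal, 53.9 in both samples. Per the labels, RNA went through 2 rounds of amplification. Trimmed means (2%) were 32.8 and 30.9, so the arrays were quantile-normalized, signals under 20 were set to 20 and log2 was taken. Probe sets were named from the platform's annotation table, and only the 10833 naming 1 gene could be members. All 66 control probe sets were left out. On arrays the number of samples, here 2, limits precision. No test was possible. The script was tested on simulated data. Python 3.11.15, numpy 2.4.6, scipy 1.17.1 and pandas 2.3.3 were used.

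Every member was to be accounted for: probe sets 2-fold or more apart, the 8 with the highest mean log2 signal, those of genes with several probe sets and those not above the control level with both signals, the rest by range. In the other lists, members 2-fold apart above the floor (at most 4) and the 2 with the highest mean log2 signal were named. Members named outside this rule (Mrpl24, Mrps21, Mrpl3, Mrps36, Mrpl58, Sars2, Tfam and the marker genes) were chosen after their values were seen. Members, lists and motifs were chosen with earlier results of these data known. The signal limit of 100, the 1.2-fold limit, the range of like signal, the marker sums without 1 gene, the patterns of the comparison groups and the motif forms shown were settled with the data in view. The alternatives were 2 other scalings, 2 other control levels, no floor, an offset of 32, no filter, both signals above the floor, 1 probe set or the mean per gene, each sample alone and plain probe sets only.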

Additional observations from a re-analysis of the deposited data

How the results depend on the processing

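Over the 11 alternatives that keep both samples the count of 11 to 1 past 2-fold kept its direction. All of them use the same 2 arrays, and some could not change it. Keeping only signals above the floor left the same 12 probe sets, and a lower control level or no filter could only add others. It was 14 and 2 without a floor, where the counts among all 6118 probe sets were 855 and 674, also more in sample 1. It was 5 and 0 with an offset of 32, beside 263 and 228 among all 6118. The offset shrinks differences of weak signals by construction. With that offset 5 member probe sets were past 2-fold in place of 12, and the median mean log2 signal was 6.25 in place of 5.38. The median difference was 0.39 with the deposited scaling, 0.25 with median-centring, 0.028 with the median of the bacterial controls as the level and 0 without a filter, where more probe sets at the floor enter. No alternative reversed it. Without sample 1, 59 member probe sets were above the control level, and without sample 2, 61. The maximum of the bacterial controls as the level left 49 and their median 70. No difference of the 12 named members changed sign under the other scalings or without the floor. They were picked for being 2-fold or more apart and had both signals above the floor. These settings could therefore hardly reverse them, and nothing is read from it. No paired analysis was possible because there is only 1 group. Signals near the floor limit what these arrays can show for weak members.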

Other observations

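Another 5 probe sets name a mitochondrial ribosomal gene together with another gene and were left out of all counts. Those of Mrps34 and Nme3 had 103 in sample 1 and 53.2 in sample 2, and 96.9 and 53.8, while the probe set of Mrps34 alone had 32.8 and 21.8. That of Mrpl30 and Gm6238 had 98.9 and 177.4, that of Mrps18b and Gm13552 had 30.7 and 16.4, and that of Mrpl53 and Ccdc142 had 20.1 and 10.4.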
